A study of Mus musculus with 14 samples.

Results

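The response to N-Myc in wild-type progenitors was read from 5 of the 14 arrays in the series: 3 arrays labelled WT-Ctrl and 2 labelled WT-NMyc (the sample titles spell the latter MNyc). They were chosen by genotype and vector label, not by any measured value. All of the cells were lineage-negative mouse bone marrow cells (hematopoietic progenitor cells, HPCs) collected on an autoMACS magnetic separator and kept for 48 h in bone marrow medium. They were then placed on retronectin-coated wells carrying virus from GP+E86, an ecotropic retroviral packaging line. WT cells carried Polg wt/wt, that is, unmutated copies of the gene of the mitochondrial DNA polymerase. Ctrl cells received MSCV-IRES-YFP, a murine stem cell virus vector that makes yellow fluorescent protein, and NMyc cells received MSCV-NMyc-IRES-YFP, which makes N-Myc and the same marker from one viral transcript. Transduction, culture and YFP were therefore common to both groups. Het (Polg wt/mut) and Hom (Polg mut/mut) cells were handled in the same way, and their arrays are used here for the shared estimate of spread and for the closing comparison of genotypes. The labels call the arrays biological replicates and do not say how many mice stand behind each. Age, strain, the time from transduction to RNA extraction and any sorting for YFP are not stated in the labels, so the share of cells that carried a vector is unknown.

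N-Myc is a transcription factor of the MYC family. It pairs with MAX to bind the E-box, the letters CACGTG and near variants, and competes there with MAX partners of the MXD group. MYC proteins are best known for raising the genes of ribosome production, nucleotide synthesis and mitochondria. In the blood system, N-Myc and c-Myc act together in stem and progenitor cells, and forced expression of either can give rise to myeloid leukemia in mice.

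Values are log2 units per probe set, so a difference of 1 is a doubling. Where values are listed, WT-Ctrl replicates 1, 2 and 3 come first, then WT-NMyc replicates 1 and 2. A gene is said to rise or fall where limma's test, fitted to all 14 arrays, gave an adjusted p under 0.05 after Benjamini-Hochberg adjustment over 22206 probe sets. By this rule 2240 sets rose, a share of 10.1%, and 2010 fell, a share of 9.05%. At least a 2-fold change was reached by 574 of the rises (2.58% of all sets) and 772 of the falls (3.48%), and the median difference over all sets was -0.0035. Counted once per gene symbol, 2041 of 19505 genes rose (10.5%) and 1838 fell (9.42%). Calls were rarer among dim sets: above a log2 level of 7.41, 21.7% of 8085 sets rose and 16.2% fell. The gene lists below are to be read beside these shares, and no list was tested against them. Leaving out WT-NMyc replicate 1 lowered the counts to 1428 rises and 1232 falls, and leaving out replicate 2 to 1146 and 1234. In both cases the lone remaining NMyc array is assumed to vary like the other groups. Positive control sets stood 4.17, 3.60 and 3.99 above negative ones in the WT-Ctrl arrays and 4.04 and 4.34 above in the WT-NMyc arrays, so the ranges of this measure of array contrast overlapped through WT-Ctrl replicate 1 alone. The sample codes in the labels fall into 3 runs, which the labels do not call batches, and the run of WT-Ctrl replicate 1 holds no NMyc array. In both other runs the NMyc array had the higher contrast, 4.04 against 3.60 and 4.34 against 3.99, and the part of contrast in the results was not tested. With these runs alone, 2191 sets rose and 1961 fell.

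Of the progenitor markers chosen, Kit, Cd34, Gata2 and Myb were present and Ly6a was not measured. Markers of maturing myeloid cells were present too. Kit, the stem cell factor receptor, read 10.09, 9.73 and 10.10 with Ctrl and 9.09 and 9.39 with NMyc. Gata2 and Myb, transcription factors of early progenitors, stood between 10.66 and 11.88 in every WT array, and neither was called. Flt3, a receptor of lymphoid-primed progenitors, did not exceed the negative control median in 3 of the 5 arrays. Mpo and Elane, of early neutrophil granules, and Cpa3, of mast cells, stood at 11.48 or more in every WT array. Markers of B, T, stromal and endothelial cells ranged from 3.25 to 7.24, with Ncr1 and Tek not above negative controls in any WT array, and Klf1 and Alas2, of red cell precursors, reached at most 6.75. Ptprc (CD45), the surface phosphatase of nearly all blood cells, read 11.15, 11.14 and 10.98 with Ctrl against 9.29 and 9.51 with NMyc. It fell by 1.69 (SE 0.17, 3.22-fold, adjusted p = 6.02e-06) with no overlap between groups. In a bulk sample, fewer cells of a type and less RNA per cell cannot be told apart, and this holds for each lineage gene below.

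Short stretches before the start of 6 genes are shown because they are among the strongest rises whose promoter window held the E-box upstream of the start. Predicted-gene, clone and Rik symbols were left out of this choice, and not every chromosome was searched. The windows ran from 250 bases before to 50 bases after the RefSeq start (assembly GRCm38.p6, first window listed for each gene). Each line gives 60 bases in the direction of the gene, with the E-box in capitals.
Cluh: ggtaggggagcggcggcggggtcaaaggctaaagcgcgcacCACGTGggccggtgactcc
Hspd1: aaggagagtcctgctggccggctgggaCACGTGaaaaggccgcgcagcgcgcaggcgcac
Nme1: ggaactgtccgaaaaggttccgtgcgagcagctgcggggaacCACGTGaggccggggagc
Slc16a1: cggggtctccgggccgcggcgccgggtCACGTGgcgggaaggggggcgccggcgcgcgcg
Ppa1: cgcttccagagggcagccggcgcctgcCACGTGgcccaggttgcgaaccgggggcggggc
Prmt1: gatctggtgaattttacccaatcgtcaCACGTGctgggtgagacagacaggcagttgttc

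The Cluh stretch is chr11:74649444-74649503 on the plus strand, and its E-box begins 19 bases before the start. Cluh binds messenger RNAs of mitochondrial proteins, and its level rose by 1.82 (SE 0.25). On the minus strand, chr1:55088291-55088350 belongs to Hspd1, the mitochondrial chaperonin (E-box 80 bases before the start), which rose by 1.71 (SE 0.14). Nme1, a nucleoside diphosphate kinase, has its stretch at chr11:93968273-93968332 on the minus strand, 18 bases before the start, and rose by 1.66 (SE 0.17). For Slc16a1, the lactate transporter MCT1, the stretch is chr3:104638437-104638496 on the plus strand (200 bases before), with a rise of 1.65 (SE 0.17). Ppa1, a cytosolic pyrophosphatase, lies at chr10:61648454-61648513 on the plus strand (140 bases before) and rose by 1.62 (SE 0.14). The arginine methyltransferase gene Prmt1 has chr7:44986569-44986628 on the minus strand (181 bases before) and likewise rose by 1.62 (SE 0.19).

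Across 15691 genes with a window, CACGTG, which reads the same on both strands, was found in 8.18% (95% Wilson interval 7.76 to 8.62). Among 1705 called rises 13.8% held it (12.3 to 15.6), and among 451 rises of at least 2-fold 20.8% did (17.3 to 24.8). The 1498 called falls held it in 7.08% (5.88 to 8.49). The near form CACGCG, searched with its complement CGCGTG, was in 12.7% of all windows, 22.9% of rises and 12.8% of falls. By contrast, CATGTG (with CACATG) was less frequent in rises, at 8.45%, than over all windows, at 11.3%. A window held 15.9 CpG pairs on average over all genes, 22.5 among rises, 22.8 among rises of at least 2-fold and 17.9 among falls. Rises had more CpG pairs and more CACGTG than all genes. Falls had more CpG pairs, and the interval of their CACGTG share included the share over all genes. Falls of at least 2-fold had 14.9 CpG pairs on average and held CACGTG in 7.17% (5.31 to 9.61). The part of CpG content in these shares was not tested. A match is a description of the letters in the window and not a binding site. The intervals cover counting error only.

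**Figure D1:**
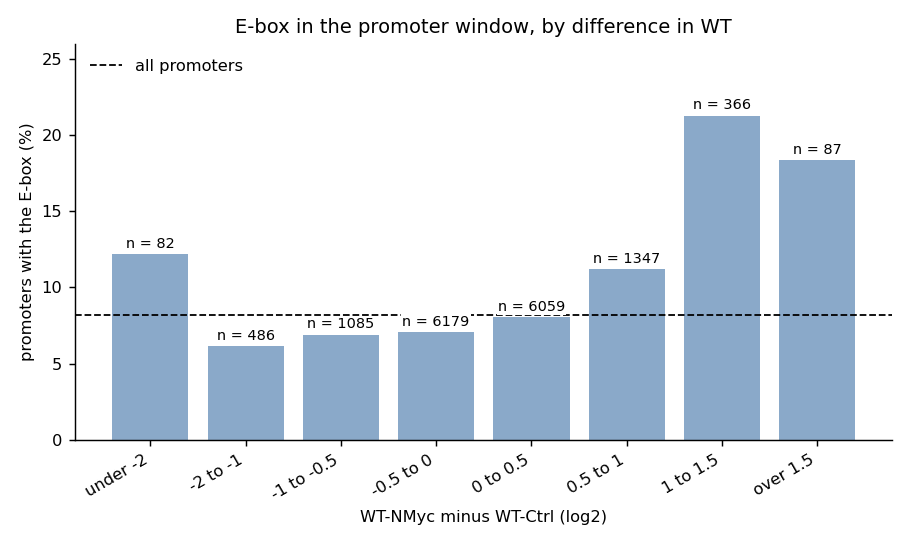
Share of promoter windows that hold the E-box (vertical axis, percent) by the difference between WT-NMyc and WT-Ctrl (horizontal axis, log2); n is the number of windows in a bin, and the dashed line marks the 8.18% over all windows. The share is 7.07% for differences of -0.5 to 0, 11.2% for 0.5 to 1 and 21.3% for 1 to 1.5, then 18.4% for the 87 windows above 1.5, and the lowest bin, with 82 windows, stands at 12.2%.

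The vector gene itself was read first. Mycn read 7.58, 7.76 and 7.43 with Ctrl and 12.17 and 12.30 with NMyc, a rise of 4.64 (SE 0.38, 24.9-fold, adjusted p = 1.42e-06). It was the largest rise of any named gene. Myc, the endogenous relative, moved the other way: it read 11.45, 11.39 and 11.38 with Ctrl and 9.45 and 9.93 with NMyc, and fell by 1.72 (SE 0.16, 3.29-fold, adjusted p = 4.22e-06). Among MAX partners that oppose MYC, Mxd1 fell by 0.98 (SE 0.14), Mxd4 by 0.72 (SE 0.13) and Mxi1 by 0.50 (SE 0.15). Max itself rose by 0.58 (SE 0.15, adjusted p = 0.013), and Ruvbl1, an ATPase that works with MYC on chromatin, by 1.68. Of 20 measured members of the network list 5 rose and 4 fell. The rises numbered 3 when WT-NMyc replicate 2 was left out. Polg read 6.91, 7.67 and 7.19 with Ctrl and 7.45 and 7.65 with NMyc, which overlap (difference 0.30, adjusted p = 0.338).

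**Figure D2:**
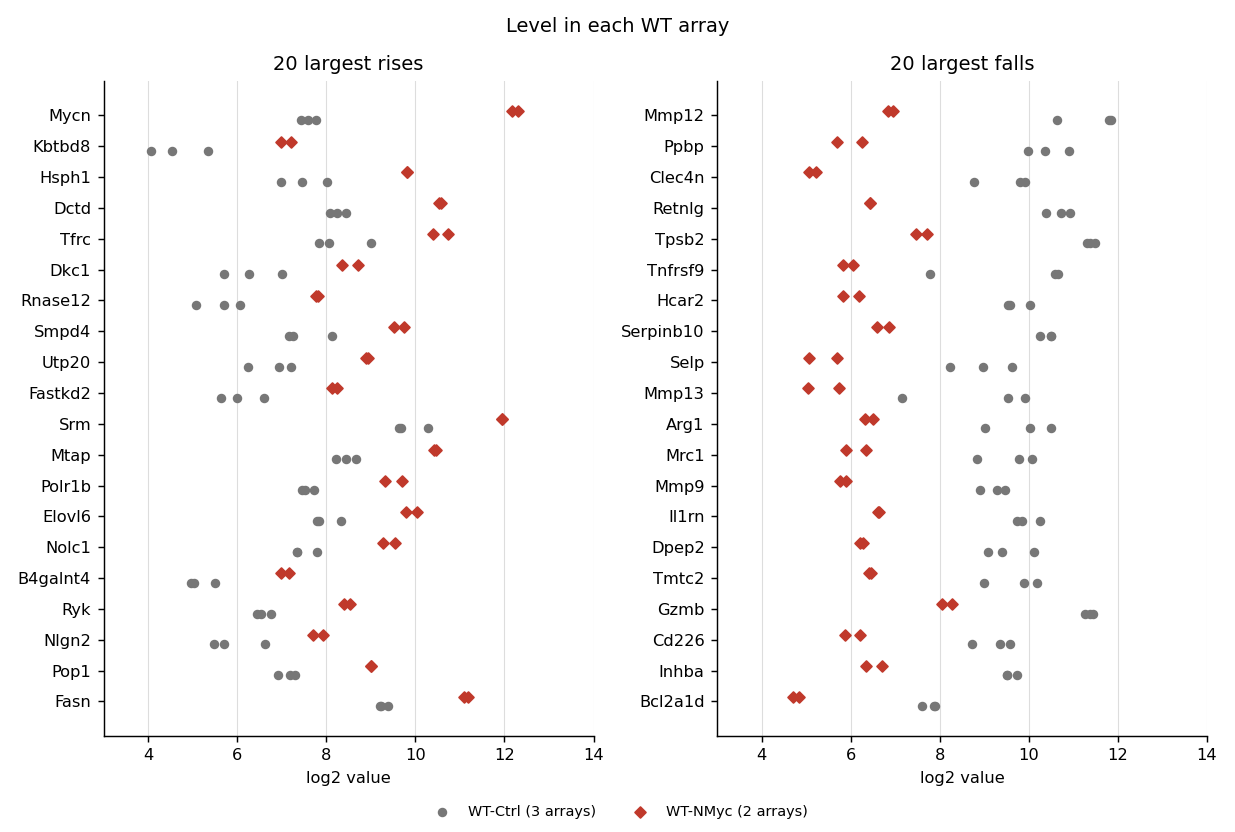
Log2 value in each WT array (horizontal axis) of the 20 largest rises (left) and 20 largest falls (right) among called genes whose groups do not overlap; grey circles are the 3 WT-Ctrl arrays and red diamonds the 2 WT-NMyc arrays. For Tnfrsf9 and Mmp13 1 Ctrl array, replicate 3, lies at 7.77 and 7.15, well below the other Ctrl arrays.

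The largest rises after Mycn came from several kinds of gene. Kbtbd8, an adaptor of a ubiquitin ligase that acts on the ribosome factors Nolc1 and Tcof1, read 4.53, 4.07 and 5.35 with Ctrl and 6.98 and 7.21 with NMyc; 1 Ctrl array was not above negative controls. Dctd, the deaminase that makes dUMP from dCMP, read 8.07, 8.23 and 8.44 against 10.58 and 10.53. In both genes every NMyc array stood above every Ctrl array, which the choice of the largest rises required. Tfrc, the transferrin receptor that takes up iron, was at 7.83, 9.01 and 8.05 with Ctrl and at 10.40 and 10.73 with NMyc, a rise of 2.27 (SE 0.34, adjusted p = 0.000222). Steap3, the reductase that acts on the iron it brings in, rose by 1.34 (SE 0.17). On the whole iron list 6 of 21 genes rose and 2 fell, with 0 falls without WT-NMyc replicate 1 and 4 rises without either NMyc array. With all arrays 28.6% of the iron list rose and 9.52% fell, at a mean level of 8.56 to 8.81 in the WT arrays. Of all sets with a log2 level of 8 to 9, 22% rose and 15% fell. Smpd4, a sphingomyelinase, rose by 2.13 (SE 0.27), Elovl6, which lengthens fatty acids, by 1.93 (SE 0.22), and Fasn, the fatty acid synthase, by 1.85 (SE 0.14). The genes Rnase12, B4galnt4, Ryk and Nlgn2 were further rises, by 2.18, 1.90, 1.90 and 1.88.

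Genes that build ribosomes rose from the polymerase to the last processing steps, with no called fall on any of 5 lists. Of the 14 measured members of RNA polymerase I and its factors 9 rose, with a list median of 0.63 beside -0.002 over all genes. Polr1b, its second largest subunit, read 7.45, 7.52 and 7.73 with Ctrl and 9.32 and 9.69 with NMyc (rise 1.94, SE 0.20, adjusted p = 1.02e-05). RNA polymerase III, which makes transfer RNA and 5S ribosomal RNA, rose in 9 of 19 (median 0.51), with Polr3d at 1.11. The small-subunit processome rose in 33 of 40 (median 1.02), led by Utp20 at 2.11 (SE 0.22). The large-subunit assembly list rose in 41 of 46 (median 0.99), led by Grwd1, a histone-binding nucleolar protein, at 1.83 (SE 0.21). For snoRNP and rRNA modification factors 15 of 18 rose (median 1.14). Dkc1, the pseudouridine synthase, read 5.69, 6.26 and 7.0 against 8.34 and 8.70, and its assembly factor Naf1 7.82, 7.75 and 8.08 against 9.66 and 9.69. Pop1 and Nolc1, of RNase P/MRP and of snoRNP transport, rose by 1.86 and 1.92. Without WT-NMyc replicate 2 the polymerase I count fell to 5.

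Translation and protein handling rose less evenly. Of 30 translation factors 17 rose and 0 fell (median 0.53), among them Eif2b3, of the eIF2 exchange factor, by 1.51 (SE 0.19) and the cap-binding Eif4e by 1.12 (SE 0.18). The 21 cytosolic tRNA synthetase genes measured gave 8 rises (median 0.44): Farsb by 1.36, and the scaffold proteins Eef1e1 and Aimp2 of the multi-synthetase complex by 1.30 each. Their mean level was already 9.80 in WT-Ctrl replicate 3 against 9.51 and 9.31 in the other Ctrl arrays, and without that array 13 rose. Cytosolic chaperones rose in 16 of 25 (median 0.65). Hsph1, a disaggregase partner of HSP70, read 6.97, 8.01 and 7.46 with Ctrl and 9.81 and 9.82 with NMyc (rise 2.33, SE 0.26, adjusted p = 1.89e-05), and Hsp90aa1, the inducible HSP90, rose by 1.25 (SE 0.17). These counts were 10 for translation factors and 8 for chaperones when WT-NMyc replicate 2 was left out.

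The proteasome list rose in 29 of 40 members with no fall (median 0.61), led by Psmc5, an ATPase of the regulatory particle, at 1.29 (SE 0.23). The interferon-inducible catalytic subunits did not move as one. Psmb8 read 9.38, 9.44 and 9.21 with Ctrl and 9.29 and 9.34 with NMyc (difference -0.03), Psmb9 stood 0.52 lower without passing the test (adjusted p = 0.11), and Psmb10 rose by 0.84 (SE 0.17, adjusted p = 0.00265). Leaving out WT-NMyc replicate 2 gave 17 rises on the list.

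Nuclear systems beside the ribosome factors rose broadly. The spliceosome list rose in 36 of 42 members (median 0.89). Eftud2, a U5 GTPase, read 7.94, 7.88 and 8.39 against 9.75 and 9.85 (rise 1.73, SE 0.23, adjusted p = 6.71e-05). The methyltransferase Prmt5, which modifies Sm proteins for their assembly, rose by 1.16. Of 38 nuclear pore and transport genes 30 rose and 0 fell (median 0.78), including Rcc1, the exchange factor of RAN, at 1.44 (SE 0.17) and Ranbp1, its GTPase co-activator, at 1.32 (SE 0.14). Chromatin factors were mixed, with 12 rises and 3 falls of 37. The lysine methyltransferase Smyd2 read 7.99, 8.18 and 8.02 with Ctrl against 9.84 and 9.85 with NMyc and rose by 1.78 (SE 0.14, adjusted p = 9.73e-07). Kat2a (GCN5), an acetyltransferase recruited by MYC, rose by 1.44, and Tet1, a DNA demethylation enzyme, by 1.24. Kdm5b, a demethylase of histone H3 lysine 4, fell by 1.08.

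**Figure D3:**
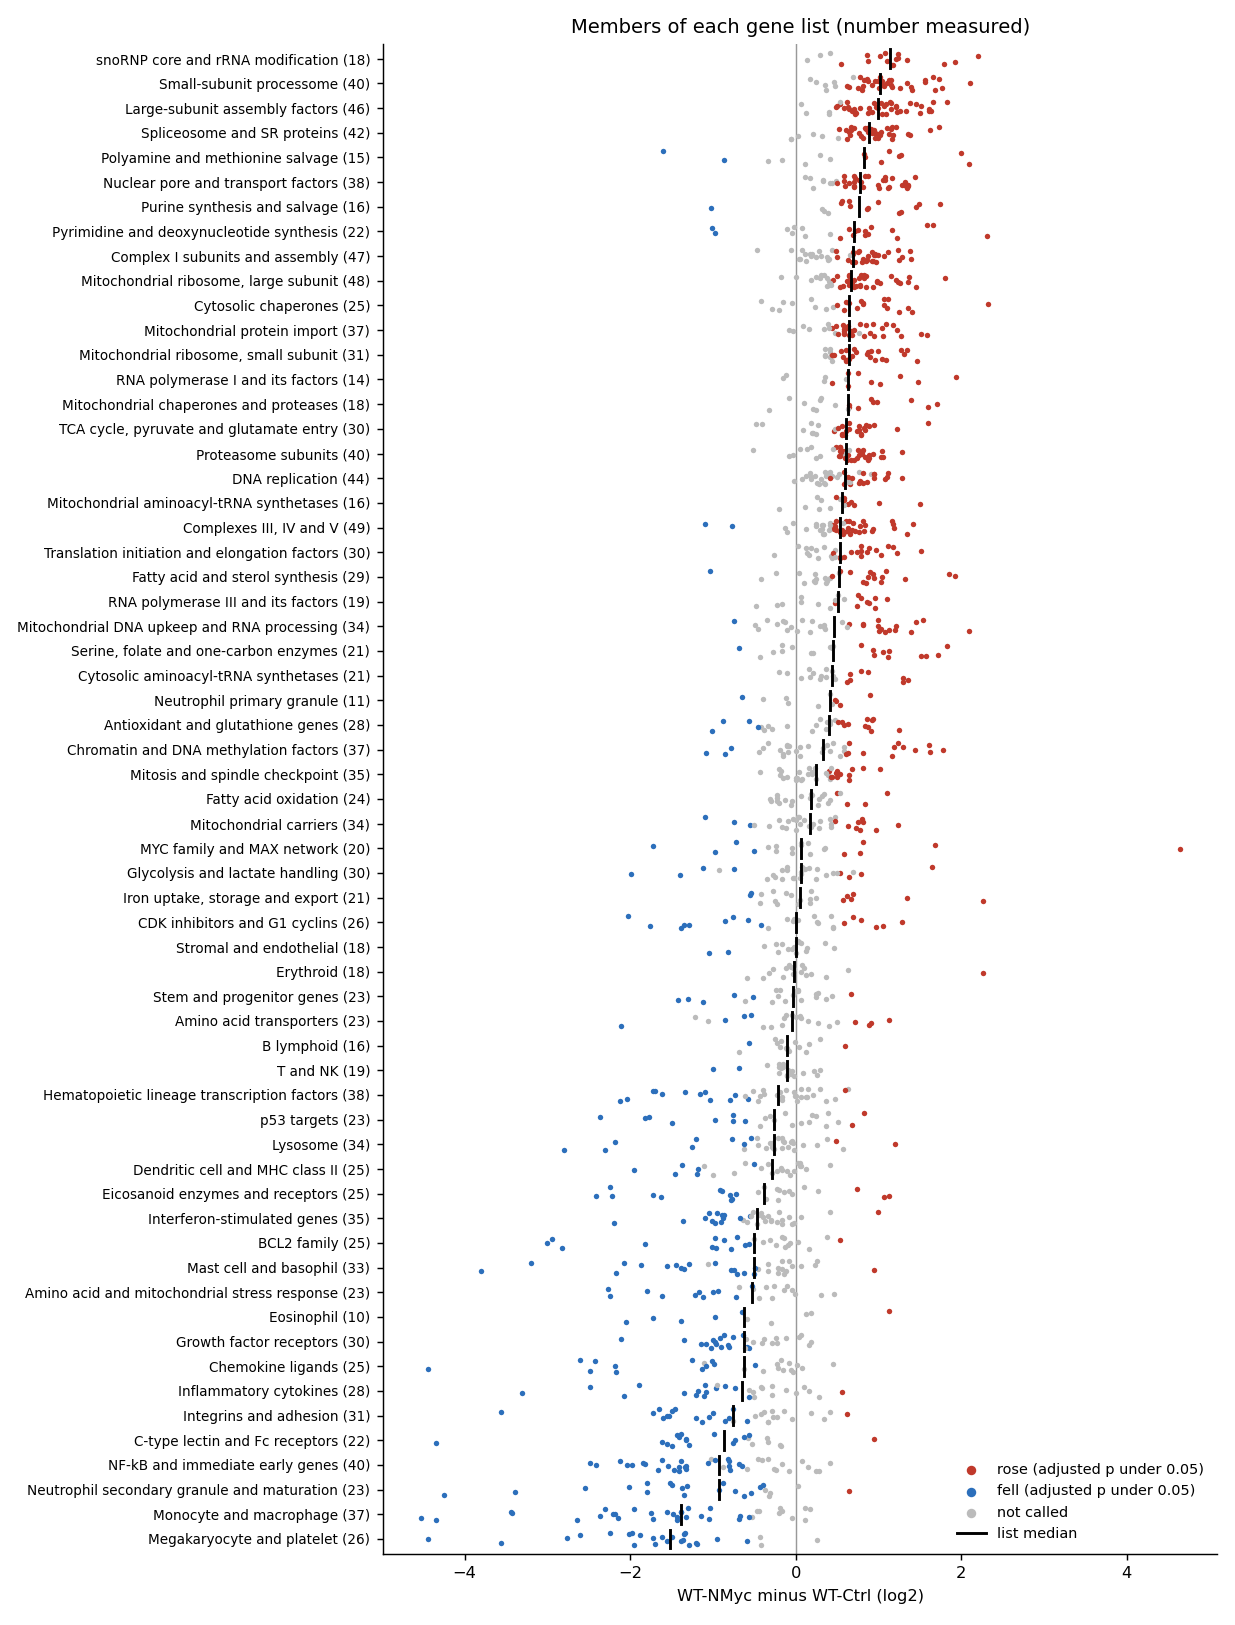
Difference between WT-NMyc and WT-Ctrl (horizontal axis, log2) for each measured member of every list with at least 10 members, ordered by list median (black bar); red points rose, blue points fell and grey points were not called, and the number of members stands in parentheses. Ribosome, splicing, nuclear pore and mitochondrial lists lie to the right of 0 with no or few blue points, and the platelet, macrophage, neutrophil maturation and NF-kB lists lie to the left.

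Nucleotide genes mostly rose, and polyamine genes split between synthesis and breakdown. Purine synthesis rose in 12 of 16 genes (median 0.76), from Ppat, the committed step, at 1.75 (SE 0.25) onwards, and Adssl1, the muscle-type adenylosuccinate synthase, fell by 1.02. Pyrimidine and deoxynucleotide genes rose in 14 of 22 (median 0.71). The falls there were Samhd1, which degrades deoxynucleotides, by 1.01 (SE 0.17) and Rrm2b, the p53-inducible reductase subunit, by 0.97 (SE 0.23). Among polyamine genes the synthases rose. Srm read 9.67, 9.62 and 10.29 with Ctrl and 11.95 and 11.94 with NMyc (rise 2.09, SE 0.19), Odc1 rose by 1.25 (SE 0.15) and Sms by 1.27 (SE 0.19). The catabolic enzymes fell, Sat1 from 10.80, 10.22 and 10.59 to 8.87 and 9.01 (it fell by 1.6, SE 0.18, adjusted p = 1.53e-05) and Smox by 0.87 (SE 0.17). Mtap, which salvages methionine from the by-product of polyamine synthesis, rose by 2.00 (SE 0.17). The polyamine list as a whole gave 8 rises and 2 falls of 15. One-carbon enzymes rose in 10 of 21 (median 0.45), with Mthfd1 at 1.72 and the folate carrier Slc19a1 at 1.83. Pyrimidine rises numbered 8 without WT-NMyc replicate 2.

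Lists of sugar use and amino acid uptake did not rise as a whole. Of 30 glycolysis and lactate genes 4 rose and 4 fell (median 0.06), which is 13.3% each way. Over all genes 10.5% rose and 9.42% fell. The mean level of the list was 9.48 to 9.8 in the WT arrays. Of all sets with a log2 level of 9 to 10, 26.8% rose and 18.6% fell, so both shares of the list were below those of similarly bright sets. Slc2a3, the neuronal and myeloid glucose transporter GLUT3, read 10.79, 10.94 and 10.38 with Ctrl against 8.72 and 8.70 with NMyc and fell by 1.99 (SE 0.26, adjusted p = 6.25e-05). Slc2a1, the widespread transporter GLUT1, stood at 11.17, 11.29 and 10.89 against 10.96 and 10.94 and was not called. Hexokinases moved apart: Hk3, of myeloid cells, fell by 1.12 (SE 0.15), and Hk2 rose by 0.53 (SE 0.17, adjusted p = 0.0435). Ldha, lactate dehydrogenase, rose by 0.64 (SE 0.17, adjusted p = 0.0121). Leaving out either WT-NMyc array left 1 rise and 2 falls on the list, and leaving out WT-Ctrl replicate 1 or 3 left 2 rises. Amino acid transporters gave 4 rises and 4 falls of 23, which is 17.4% each way. Their mean level was 8.95 to 9.24 in the WT arrays. Of all sets with a log2 level of 8 to 9, 22% rose and 15% fell, and at 9 to 10 the shares were 26.8% and 18.6%. Slc1a5, a glutamine carrier, rose by 0.91 (SE 0.20), and Slc7a5, the large neutral amino acid carrier, read 11.93, 12.05 and 12.35 against 12.13 and 12.18, within the spread of the Ctrl arrays. The 4 falls, among them Slc7a2 by 2.11 (SE 0.58), were all lost when either WT-NMyc array was left out.

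Lipid synthesis rose in 15 of 29 genes (median 0.52), with 1 fall, Abca1, which exports cholesterol, by 1.04. Fads2, a desaturase, rose by 1.32 (SE 0.17). Fatty acid oxidation gave 4 rises of 24 (16.7%, beside 10.5% over all genes). The mean level of this list was 7.92 to 8.35 in the WT arrays. Of all sets with a log2 level of 7 to 8, 14.7% rose, and of those at 8 to 9, 22% did. By that measure the list did not stand out. Its rises included Ppargc1b, a co-activator of mitochondrial genes, which rose by 1.11 (SE 0.20). Without WT-NMyc replicate 2, 6 lipid synthesis genes and 1 oxidation gene rose. Leaving out WT-NMyc replicate 1 or WT-Ctrl replicate 2 gave 2 oxidation genes, and leaving out WT-Ctrl replicate 1 gave 7.

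Mitochondrial genes rose across nearly every compartment. The large and small mitochondrial ribosomal subunits rose in 34 of 48 and 24 of 31 genes (medians 0.67 and 0.65). Mrpl11 read 7.11, 7.06 and 7.05 with Ctrl and 8.73 and 9.02 with NMyc, and Mrps22 read 6.57, 6.21 and 7.05 against 8.08 and 8.07. Protein import rose in 28 of 37 (median 0.65), including Timm17a, of the inner membrane channel, at 1.59 (SE 0.20) and Tomm40, the outer membrane pore, at 1.51 (SE 0.21). Mitochondrial chaperones and proteases rose in 9 of 18; Hspd1 read 10.11, 10.20 and 10.45 against 11.86 and 12.07, and Phb, of the prohibitin ring, rose by 1.6 (SE 0.15). Mitochondrial tRNA synthetases rose in 8 of 16, with Yars2 at 1.5. On these 5 lists 0 members fell.

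Genes that keep and read the mitochondrial genome rose in 15 of 34, with 1 fall (median 0.46). Fastkd2, which binds the 16S ribosomal RNA of mitochondria, read 5.99, 5.64 and 6.60 with Ctrl and 8.24 and 8.12 with NMyc (rise 2.10, SE 0.26, adjusted p = 4.17e-05), and Lrpprc, which stabilises mitochondrial messenger RNA, rose by 1.54 (SE 0.21). Top1mt and Twnk, the topoisomerase and helicase of mitochondrial DNA, rose by 1.20 and 0.99. Tk2, the mitochondrial thymidine kinase, was the fall, by 0.75 (SE 0.17).

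Energy-producing steps followed. The TCA cycle list rose in 21 of 30 with 0 falls (median 0.61), led by Idh3a, a catalytic subunit of isocitrate dehydrogenase, at 1.6 (SE 0.22) and Got2, of the malate-aspartate shuttle, at 1.22. Complex I rose in 29 of 47 with 0 falls (median 0.69), Ndufaf4, an assembly factor, by 1.38. Complexes III, IV and V rose in 30 of 49 (median 0.54), Cyc1 by 1.35 and Atp5g1 by 1.18. They held 2 falls: Cox6a2, the heart and muscle isoform, read 8.83, 8.26 and 9.26 with Ctrl and 7.90 and 7.49 with NMyc (it fell by 1.09, SE 0.26, adjusted p = 0.00711), and Cox7a2l, a supercomplex factor, fell by 0.77 (SE 0.17). Carriers of the inner membrane rose less often: of 34, 9 rose (26.5%) and 3 fell (8.82%). Their mean level was 8.03 to 8.32 in the WT arrays. Of all sets with a log2 level of 8 to 9, 22% rose and 15% fell. Slc25a13, an aspartate and glutamate carrier, rose by 1.24 and Slc25a24, the ATP and phosphate carrier, fell by 1.09.

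The mitochondrial counts depended on having both NMyc arrays. Without WT-NMyc replicate 2 the rises numbered 22 for the large and 14 for the small mitochondrial ribosome, 15 for import, 3 for mitochondrial tRNA synthetases, 3 for carriers, 13 for the TCA cycle, 18 for complex I and 13 for complexes III to V. Without replicate 1 they were 13 for the small ribosome, 17 for import, 4 for the synthetases, 5 for carriers and 18 for complexes III to V, and without WT-Ctrl replicate 2 the synthetases gave 5. Mean list levels kept the NMyc arrays above all Ctrl arrays, for example 9.23 and 9.22 against 8.67, 8.47 and 8.62 for complex I.

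Brakes of the cell cycle fell while its machinery rose in part. Of 7 genes for inhibitors of cyclin-dependent kinases on the list 6 fell. Cdkn1b (p27) read 10.08, 10.14 and 9.91 with Ctrl and 8.28 and 8.29 with NMyc (it fell by 1.76, SE 0.14, adjusted p = 1.22e-06). Cdkn2a, which encodes p16 and ARF, read 8.51, 8.48 and 8.40 against 6.60 and 6.27 (it fell by 2.03, SE 0.22, adjusted p = 1.3e-05). Cdkn2d fell by 1.38, Cdkn2b by 1.35, Cdkn1a (p21) by 0.76 and Cdkn2c by 0.58. The exception was Cdkn1c (p57), at 6.63, 6.71 and 6.54 against 6.67 and 6.53. Rb1, the retinoblastoma gene, fell by 1.29 (SE 0.17). Cdk4 rose by 0.97 (SE 0.14) and the transcription factor E2f4 by 1.29 (SE 0.18). On the whole list of 26 genes 6 rose and 9 fell; without WT-NMyc replicate 2, 4 and 6 did.

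DNA replication genes rose in 20 of 44 with 0 falls (median 0.60), Mcm2, of the replicative helicase, by 1.08 (SE 0.18). Mitosis genes rose in 13 of 35 (median 0.25), Kif20a, a kinesin of cytokinesis, by 1.02 (SE 0.16). Leaving out WT-NMyc replicate 2 left 10 and 2 rises, leaving out replicate 1 left 2 for mitosis, and leaving out WT-Ctrl replicate 2 left 7 for mitosis. Targets of p53 gave 8 falls and 2 rises of 23. Btg2, an antiproliferative factor, read 9.66, 9.81 and 9.44 against 7.27 and 7.29 (it fell by 2.36, SE 0.19), and Trp53inp1 fell by 1.82. The falls numbered 5 without WT-NMyc replicate 1, and without any 1 of WT-Ctrl replicate 2 or 3 or an NMyc array there were 0 rises.

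Survival genes of the BCL2 family fell on both sides of the balance. Of 25 members 12 fell and 1 rose (median -0.50). Bcl2 read 9.94, 10.47 and 9.51 with Ctrl and 8.44 and 7.87 with NMyc (it fell by 1.82, SE 0.29, adjusted p = 0.000365). Bcl2l1 (BCL-XL) fell by 0.98 (SE 0.15) and Mcl1 by 0.71 (SE 0.15), and Bcl2l11 (BIM), which opposes them, by 1.01 (SE 0.18). Bak1, an effector of death, was the rise, by 0.54, and was not called without WT-NMyc replicate 2 or with the WT arrays fitted alone. Bcl2a1d, Bcl2a1a and Bcl2a1b fell by 3.01, 2.94 and 2.82, but these are near-identical copies whose probes may share signal, so their separate values are uncertain. The list count of 12 includes each of them.

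**Figure D4:**
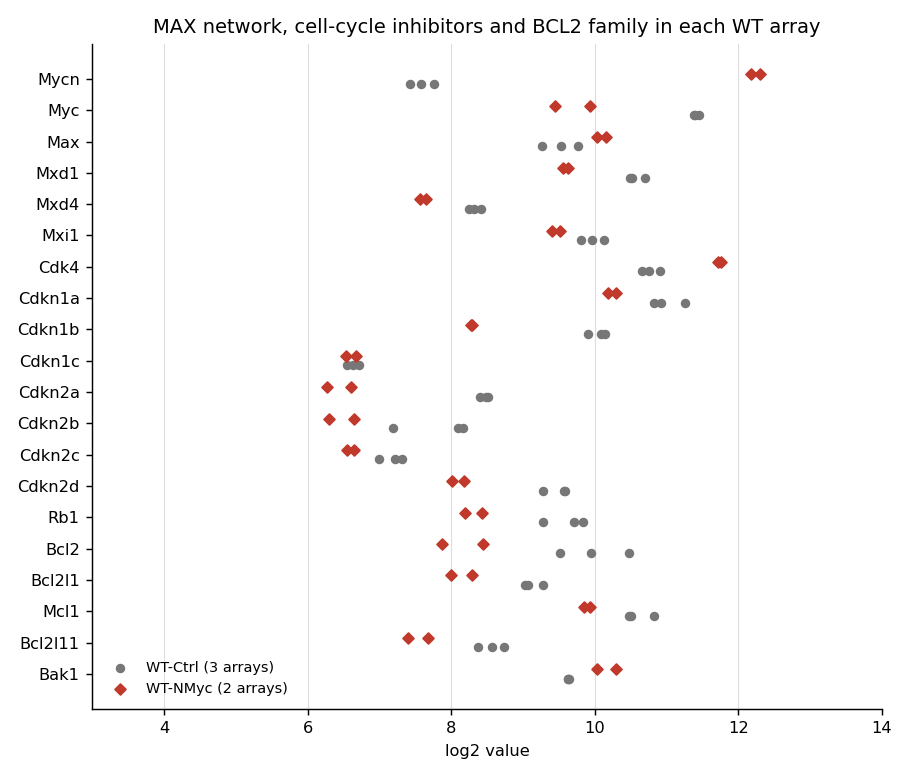
Log2 value in each WT array (horizontal axis) for genes of the MAX network, the cell cycle and the BCL2 family; grey circles are the 3 WT-Ctrl arrays and red diamonds the 2 WT-NMyc arrays. Cdkn1b stands at 8.28 and 8.29 with NMyc and at 9.91 to 10.14 with Ctrl, and Cdkn1c overlaps between the groups.

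Stress genes that depend on the factor ATF4 fell in part, while Atf4 itself was not called. Of 23 members 11 fell and 0 rose (median -0.53). Ddit3 (CHOP), a death-promoting factor, read 10.57, 9.66 and 10.20 with Ctrl and 7.95 and 7.83 with NMyc (it fell by 2.25, SE 0.22, adjusted p = 5.24e-06). Nupr1 fell by 2.27 (SE 0.34), Trib3, a pseudokinase, by 1.61 (SE 0.25) and Sesn2, a leucine sensor, by 1.17. Atf4 stood at 11.80, 11.70 and 11.96 against 11.71 and 11.83, and Asns, the asparagine synthase, at 11.18, 10.69 and 11.50 against 10.97 and 11.05, both within the Ctrl spread. Antioxidant genes were split, 11 up and 4 down of 28: the peroxidase Prdx1 rose by 1.25 (SE 0.21) and Gpx4, which removes lipid peroxides, fell by 0.57 (SE 0.14). Without WT-NMyc replicate 2, 5 antioxidant genes rose, and without replicate 1, 1 fell.

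Neutrophil genes were listed by the stage at which their products are made, and the difference between the lists was not tested. The early (primary) granule list gave 4 rises and 1 fall of 11 and a median of 0.42. Elane, neutrophil elastase, read 12.67, 12.53 and 12.55 with Ctrl and 12.97 and 13.18 with NMyc (rise 0.49, SE 0.15, adjusted p = 0.0272), and Prss57, a related protease, rose by 0.90 (SE 0.16). The rises numbered 1 without either NMyc array or without WT-Ctrl replicate 2. Of 23 late (secondary) granule and maturation genes, 18 fell and 1 rose (median -0.93). Ltf, lactoferrin, read 11.94, 12.00 and 11.98 against 9.30 and 9.54 (it fell by 2.55, SE 0.17, adjusted p = 2.87e-07), Retnlg 10.71, 10.93 and 10.38 against 6.42 and 6.44, and Mmp9, gelatinase B, 9.29, 9.46 and 8.91 against 5.76 and 5.89. Every NMyc array was below every Ctrl array for these, which the choice of Retnlg and Mmp9 among the largest falls required. Camp, the cathelicidin, fell by 1.80 (SE 0.23), and Lcn2 by 0.54 (SE 0.13). Cebpe, the transcription factor of late granules, fell by 0.73 (SE 0.17), and Spi1 and Cebpa, the earlier myeloid factors, ranged from 12.83 to 13.01 and from 9.81 to 10.11 over all 5 arrays, with neither called.

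Monocyte and macrophage genes fell in 27 of 37 with 0 rises (median -1.39). Mmp12, macrophage elastase, read 11.84, 11.80 and 10.64 with Ctrl and 6.95 and 6.83 with NMyc (it fell by 4.53, SE 0.45, 23.1-fold, adjusted p = 6.57e-06), the largest fall of all. Clec4n (Dectin-2), a fungal receptor, read 9.90, 9.79 and 8.77 against 5.22 and 5.05, and Mrc1, the mannose receptor, 9.77, 10.06 and 8.83 against 6.35 and 5.89. WT-Ctrl replicate 3 was the lowest Ctrl array for all of these, and for Arg1 (10.02, 10.49 and 9.01) and Mmp13 (9.53, 9.90 and 7.15) as well. This array lay above both NMyc arrays in each, which the choice of these genes required. Without that array 27 members fell. Lyz2, lysozyme, which did not set replicate 3 apart, read 12.83, 12.66 and 12.61 against 10.56 and 10.42. Csf1r, the receptor of the macrophage growth factor, fell by 1.15 (SE 0.30, adjusted p = 0.0126). Other large falls fitted no single list. Hcar2, the niacin receptor, read 9.54, 10.03 and 9.57 against 5.83 and 6.18, and Inhba, the subunit of activin A, 9.5, 9.74 and 9.51 against 6.35 and 6.70 (it fell by 3.06, SE 0.16, adjusted p = 2.25e-08). Dpep2, a leukotriene dipeptidase, fell by 3.29, Tmtc2 fell by 3.25 and Cd226 fell by 3.18.

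Megakaryocyte and platelet genes had the lowest median of all lists at -1.52, with 23 of 26 falling and 0 rising. Ppbp, a platelet chemokine, read 10.36, 9.98 and 10.91 with Ctrl and 5.68 and 6.25 with NMyc (it fell by 4.45, SE 0.29, 21.9-fold, adjusted p = 2.87e-07). Pf4, platelet factor 4, read 10.58, 10.31 and 10.80 against 7.84 and 8.06, and Selp, P-selectin, 8.96, 8.22 and 9.61 against 5.05 and 5.68. Vwf fell by 1.95 (SE 0.24), and Slc6a4, the serotonin transporter of platelets, by 2.76 (SE 0.28). In contrast, erythroid genes gave 1 rise of 18, Tfrc, and 0 falls, with a median of -0.02.

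Most called mast cell genes fell, proteases among them, and the 1 rise was a chain of the IgE receptor. Of 33 members 17 fell and 1 rose (median -0.50). Tpsb2, a tryptase, read 11.37, 11.49 and 11.30 with Ctrl and 7.46 and 7.72 with NMyc (it fell by 3.80, SE 0.14, 13.9-fold, adjusted p = 3.67e-10), and Gzmb, granzyme B, 11.36, 11.44 and 11.25 against 8.05 and 8.26. Cma1, a chymase, fell by 1.87 (SE 0.22), and Cpa3 by 0.71 (SE 0.17). Ms4a2, the beta chain of the IgE receptor, read 9.14, 9.18 and 9.21 against 10.26 and 9.99 and rose by 0.95 (SE 0.18, adjusted p = 0.00117), whereas its alpha chain Fcer1a was 0.34 lower without passing the test (adjusted p = 0.169). Mcpt4, a further chymase, was not above negative controls in either NMyc array; set against that level, its fall was at least 2.23-fold. Eosinophil genes fell in 5 of 10, among them the granule proteins Prg2, by 2.05 (SE 0.20), and Epx, by 1.72 (SE 0.23). Alox15, a lipoxygenase, rose by 1.13 (SE 0.30, adjusted p = 0.0148), a rise that was lost without WT-Ctrl replicate 1 or 2 or either NMyc array. Without WT-NMyc replicate 1, 3 eosinophil genes fell.

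Stem and progenitor genes were mostly uncalled, with 5 falls and 1 rise of 23 (median -0.03). Cd34 read 9.70, 9.53 and 9.33 with Ctrl and 8.30 and 8.14 with NMyc (it fell by 1.30, SE 0.18, adjusted p = 8.6e-05), Kit fell by 0.74 (SE 0.17), and Slamf1 (CD150), of stem cells, by 1.42 (SE 0.21). Cd48, absent from the most primitive cells, rose by 0.67 (SE 0.21, adjusted p = 0.0306). Without WT-NMyc replicate 1, 3 of the falls were called, and the rise was lost without WT-Ctrl replicate 1 or either NMyc array. Lineage transcription factors gave 12 falls and 1 rise of 38. The falls were led by Klf2, which fell by 2.12 (SE 0.39), Egr1, which fell by 2.04 (SE 0.39), and Id2, which fell by 1.72 (SE 0.26), factors of quiescence and of monocyte and lymphoid choice. The B cell list held 1 rise and 1 fall of 16 (6.25% each). The T and NK cell list held 2 falls of 19 (10.5%, beside 9.42% over all genes). Mean levels of both lists were 5.16 to 5.50.

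On the lists of receptors, cytokines and chemokines many members fell and many others were not called. Growth factor receptors fell in 17 of 30 with 0 rises (median -0.63): Il18r1 by 2.11 (SE 0.29), and among receptors of myeloid growth factors Il3ra by 0.91 (SE 0.15) and the shared beta chain Csf2rb by 0.56 (SE 0.15). Inflammatory cytokines fell in 14 of 28 and rose in 1 (median -0.65). Il6 read 11.81, 12.32 and 11.35 with Ctrl and 9.20 and 9.48 with NMyc (it fell by 2.49, SE 0.22, adjusted p = 3.16e-06), and Il1rn, the decoy ligand of the interleukin-1 receptor, 9.74, 10.25 and 9.84 against 6.62 and 6.64. Lif fell by 2.07 and Il1b by 1.89. Ifnb1, interferon beta, was the rise, by 0.56 (SE 0.16), from a Ctrl mean of 5.75, a call lost without WT-Ctrl replicate 1 or WT-NMyc replicate 2. Leaving out either NMyc array gave 11 receptor and 8 cytokine falls. Chemokine ligands fell in 12 of 25 with 0 rises, including Ccl24, an eosinophil attractant, by 2.48 (SE 0.55).

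The inducible genes downstream of such signals were lower too. NF-kB and immediate early genes fell in 25 of 40 with 0 rises (median -0.93). Dusp1, a phosphatase that ends MAP kinase signals, read 10.83, 10.98 and 10.55 with Ctrl and 8.46 and 8.15 with NMyc (it fell by 2.49, SE 0.24, adjusted p = 6.05e-06). Jun fell by 1.98 (SE 0.23), Fos by 1.82 (SE 0.31) and Nfkbia, the inhibitor that NF-kB itself induces, by 1.34 (SE 0.21). Of 35 interferon-stimulated genes 13 fell and 1 rose (median -0.47). Irf7 read 6.35, 7.58 and 6.41 against 4.37 and 4.81, with 1 NMyc array not above negative controls, and Bst2 (tetherin) rose by 0.99 (SE 0.14, adjusted p = 0.000169). Prostaglandin and leukotriene genes fell in 11 of 25 and rose in 3, with Ptgs2, the inducible cyclooxygenase, which fell by 2.41 (SE 0.25) and Ltb4r1, a leukotriene receptor, by 1.63 (SE 0.16). When WT-NMyc replicate 2 was left out, 7 of these fell and 1 rose, and without replicate 1, 0 rose.

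Surface and lysosome lists differed in how many members fell. Of 31 integrin and adhesion genes 16 fell and 1 rose (median -0.76). Itgb2 (CD18), the common chain of leukocyte integrins, read 11.08, 11.13 and 11.11 with Ctrl and 9.39 and 9.61 with NMyc (it fell by 1.6, SE 0.14, adjusted p = 1.8e-06). C-type lectin and Fc receptors fell in 15 of 22 (median -0.87). Class II antigen presentation and dendritic genes fell in 6 of 25, led by H2-DMa, a peptide-loading chaperone, by 1.96 (SE 0.26). Without WT-NMyc replicate 2, 3 of these fell, and without WT-Ctrl replicate 3, 9. Of 34 lysosome genes 8 fell, 2 rose and 24 were not called (median -0.26): Ctss, cathepsin S, read 10.28, 10.09 and 9.58 against 7.67 and 7.68, Psap, prosaposin, fell by 1.20 (SE 0.15), and Gusb, beta-glucuronidase, rose by 1.20 (SE 0.15). Without either NMyc array 1 lysosome gene rose.

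Whether the wild-type response differed from that of mutant cells was tested as a difference of effects. Against Het the test called 0 of 22206 sets (0%) with limma, and the other settings tried also called 0; 730 sets (3.29%) had an unadjusted p under 0.05. By limma's p the sets that came first with a higher effect in WT were Slc28a1, Fcrlb and Akp3, and those with a lower effect were Cyp3a16, Bend4 and Slc6a14, each with an adjusted p of 1. Slc28a1 did not exceed the negative control median in any WT-Ctrl array, Akp3 in 3 of the 5 WT arrays, and Cyp3a16 and Slc6a14 in any of the 5, so no size is given for these. The difference was 0.82 (SE 0.20) for Fcrlb and -1.08 (SE 0.26) for Bend4. A count of 0 does not show that the responses were alike.

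Against Hom, 18 sets were called (0.0811%), 16 with a more negative effect in WT and 2 with a more positive one; 1896 sets (8.54%) had an unadjusted p under 0.05. Cth, which makes cysteine, read 8.44, 8.23 and 9.16 in WT-Ctrl and 8.42 and 8.09 in WT-NMyc, but 7.40 and 7.43 in Hom-Ctrl and 9.51 and 9.47 in Hom-NMyc. The WT effect was therefore 2.44 below the Hom effect (SE 0.36, adjusted p = 0.0147). Chac1, which degrades glutathione, fell by 1.00 in WT and was 0.82 higher with NMyc in Hom. Its difference of effects was -1.82 (SE 0.24, adjusted p = 0.0131). Ltf showed a different arrangement. Its NMyc levels overlapped, at 9.30 and 9.54 in WT and 9.34 and 9.73 in Hom, and its Ctrl levels did not, at 11.94 to 12.00 in WT and 10.81 and 10.29 in Hom, so the difference of -1.53 (SE 0.25, adjusted p = 0.0318) lay in the Ctrl arrays. Lrrk2, a kinase of myeloid cells, read 7.21, 7.39 and 7.44 in WT-Ctrl and 5.89 and 5.19 in Hom-Ctrl, against 5.17 and 4.90, and 4.86 and 4.89, with NMyc. Ptgds, a prostaglandin D synthase, was not above the negative control median in any WT array (3.49 to 4.10), stood at 6.13 and 5.85 in Hom-Ctrl, and was 3.89 and 3.69 in Hom-NMyc, again not above that median, so its fitted difference of effects has no measured size.

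The Hom comparison rested on few arrays. The array labelled Hom-Ctrl replicate 1 read 9.77 for Mycn, above every other Ctrl array. Without it 33 sets were called, Cth and Ltf remained among them (differences of -2.43 and -1.79), and Slc28a1, Nxpe5, Rps6kc1 and Serpinb10 did not pass. Without WT-NMyc replicate 1 or 2, or Hom-NMyc replicate 2, 0 sets were called, without Hom-NMyc replicate 1 there was 1, and without WT-Ctrl replicate 1 there were 33. A fit to WT and Hom arrays alone called 0.

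**Figure D5:**
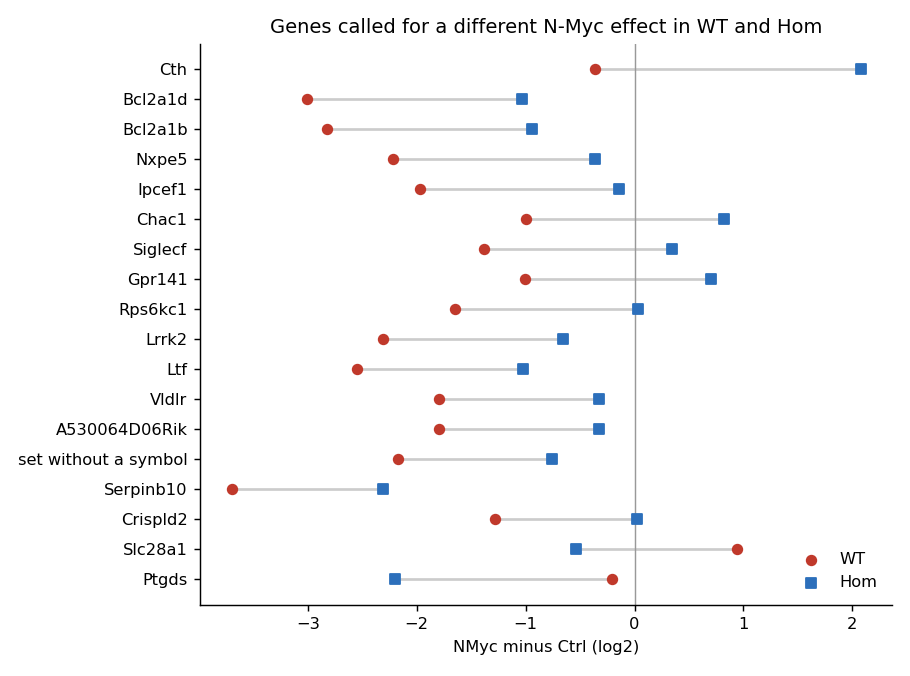
Difference between NMyc and Ctrl (horizontal axis, log2) in WT (red circles) and Hom (blue squares) for the 18 probe sets called for a difference of effects; the grey line joins the 2 effects of a set. The WT effect lies to the left for 16 sets and to the right for Slc28a1 and Ptgds, which were at background in several groups, and for Cth the effects lie at -0.36 and 2.08.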

How the data were processed

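RNA was hybridised as biotin-labelled target from the Affymetrix WT PLUS kit, per the labels' protocols. The authors' deposited table holds log2 values, 1 for each set on each array. The submitters' processing notes name Affymetrix Expression Console; its version and its summary and normalization method are not stated there. The array medians of the tested sets differed by at most 0.084, and the values were used as deposited.

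Of 28846 sets, 6640 control sets were left out and 22206 tested. Group means of the 6 groups were fitted to all 14 arrays with limma 3.58.1 in R 4.3.3 (lmFit, eBayes; 8 residual and 7.3 prior degrees of freedom), with Benjamini-Hochberg adjustment and a threshold of 0.05. The fit was tested on simulated data. All groups share 1 estimate of spread, and the number of arrays limits the precision. The labels call arrays biological replicates; p-values measure only the spread between these arrays. GEO's platform annotation gave 1 symbol for 19572 sets and none for 2634. Each array's negative control median served as its background level, also for bounds.

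The 61 lists (1706 of 1890 entries matched) were chosen with earlier results of these data known. Named were Mycn, Myc and Polg, the 20 largest called rises and falls without overlap, list members that show a list's roles, and sets leading each difference of effects. Deviations of same-numbered WT arrays correlated at -0.071 and -0.133, and those of WT arrays in the same code run at 0.133 and 0.068. The deviations of 2 NMyc arrays mirror each other, so these values cannot decide whether arrays are paired. Alternatives covered the samples fitted, blocks, scaling, filters, the variance model, array weights and leaving out single arrays. Promoter windows came from RefSeq.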

Additional observations from a re-analysis of the deposited data

Results flagged for a closer look

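The effect of N-Myc differed between WT and Hom cells for 18 probe sets by a test of the difference itself (limma, adjusted p from 0.0131 to 0.0483). The WT effect was lower by the following log2 differences of effects. Among enzymes Cth gave -2.44 and Chac1 -1.82. Among receptors, Siglecf, of eosinophils, gave -1.72, the orphan receptor Gpr141 -1.71 and Vldlr, which binds lipoproteins, -1.48. The survival genes Bcl2a1d and Bcl2a1b, near-identical copies, gave -1.99 and -1.88. The kinase genes Rps6kc1 and Lrrk2 gave -1.68 and -1.65. Ltf stood at -1.53, Serpinb10 at -1.39 and Crispld2 at -1.30. Nxpe5 gave -1.86, Ipcef1 -1.83, A530064D06Rik -1.47 and a set without a symbol -1.40. The fitted difference was positive for Ptgds, at 1.99, and for Slc28a1, at 1.47. Neither is a measured size: Ptgds did not exceed the negative control median in any WT or Hom-NMyc array, nor Slc28a1 in any WT-Ctrl or Hom-NMyc array.

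In all 16 sets with a lower WT effect both Hom-Ctrl arrays read below the 3 WT-Ctrl arrays. Crispld2, for example, read 7.79, 7.77 and 7.68 in WT-Ctrl and 6.83 and 6.79 in Hom-Ctrl, against 6.44 and 6.49, and 6.77 and 6.88, with NMyc. Without the array labelled Hom-Ctrl replicate 1 the differences were 1.21 for Slc28a1 (adjusted p = 0.125), -1.72 for Nxpe5 (0.108), -1.73 for Rps6kc1 (0.0793) and -1.33 for Serpinb10 (0.0843), and the other 14 sets passed.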

How the results depend on the processing

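Called rises in WT ranged from 1620 to 2507 over the alternatives that kept every array, the lowest with WT arrays alone, and from 1146 to 2296 when 1 array was left out; called falls ranged from 1537 to 2237 and from 1232 to 1991. The replicate block gave 2414 rises and 2153 falls. Whether replicate numbers pair these arrays could not be decided. Lists with at least 50% of members called 1 way ranged from 12 to 35 when 1 array was left out. The share of called rises with CACGTG was 10.1% in the 250 bases before the start alone and 20.8% for rises of at least 2-fold. For WT against Hom, the count of 18 became 0 with these genotypes alone, 5 with only the AFFX controls left out, 62 with the trended and robust prior and 25 with the replicate block, and 0 to 33 when 1 array was left out. With dim sets left out, and so fewer genes tested, falls numbered 14 for platelet genes, 7 for the BCL2 family and 6 for interferon-stimulated genes. For WT against Het every setting run gave 0. The cause of these changes was not tested. Left-out arrays leave lone arrays, which are assumed to vary like the other groups.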
